A study of Mus musculus with 18 samples.

Results

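Notch1 bound some places in mouse T cell acute lymphoblastic leukaemia (T-ALL) as runs of closely spaced peaks, and these runs are described here. Autosomal Notch1 peaks were chained wherever the gap from the end of a peak to the start of the next was 5 kb or less, and chains of 4 or more peaks were kept. The rule found 231 clusters with 1138 peaks, which is 7.83% of the 14541 autosomal peaks and is drawn from 14569 peaks in all. The other autosomal peaks comprised 9612 that stood alone, 2678 in pairs and 1113 in triplets.

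The study profiled chromatin by immunoprecipitation and sequencing (ChIP-seq) in CD4+ CD8+ double-positive (DP) cells of normal mouse thymus and in T-ALL from tumours that overexpress Notch1-IC, the intracellular form of Notch1. Each cell type has 2 libraries for H3K27me3, H3K4me3, H3K9ac and the input cut with micrococcal nuclease, and T-ALL has 1 Notch1 library and 1 sonicated input, 18 libraries in all. How many animals or tumours were used, which promoter drove Notch1-IC and the mouse strain are not stated in those labels. Chromatin was pooled over many cells, so a mark in more cells and more of the mark per cell cannot be told apart.

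Notch1 is a receptor whose intracellular part, once cut free, enters the nucleus and joins the DNA-binding protein RBPJ and a Mastermind coactivator to switch genes on. It directs early thymocytes towards the T cell fate, its signal is low by the DP stage, and activating mutations of it are common in T-ALL. H3K4me3 and H3K9ac are typical of promoters in use, whereas Polycomb repressive complex 2 places H3K27me3 on silenced genes.

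Positions are on mouse build mm9, with starts counted from 1. The lists give the places of regions and no height, fold or significance, so the depth behind a peak is unknown. A histone region is listed where the T-ALL and DP comparison called a difference, and it is coloured red or green. Which colour stands for the higher signal in T-ALL is not stated, so regions are named by colour. The Notch1 positions chose the clusters and are described without a test. The histone lists took no part in that choice. Peaks of a cluster share a locus and come from 1 library, so no test between clustered and other peaks was made, and the 95% Clopper-Pearson intervals given with shares cover counting error only. Gene names and sequences at the clusters were not analysed here, nor were cell type markers.

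Most clusters were near the lower limit of size. There were 134 clusters of 4 peaks, 43 of 5, 25 of 6, 14 of 7, 6 of 8, 1 of 9, 7 of 10 and 1 of 12. Just outside the rule stood 371 chains of 3 peaks. The median cluster spanned 9625 bp, with quartiles of 7437.5 and 12812.5 bp and extremes of 3275 and 29550 bp. Together the clusters spanned 2.46 Mb, of which peaks covered 34.2%.

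The rule caps the gaps inside clusters at 5 kb. The 907 gaps had a median of 1450 bp and quartiles of 550 and 2787.5 bp, and 327 gaps (36.1%) were under 1000 bp. The shortest was 0, where adjoining peaks touch. At the threshold, 32 gaps inside clusters were over 4500 bp, the longest being 5000 bp. Beside the clusters 11 gaps were 5500 bp or less, the shortest being 5025 bp. Clustered peaks had a median width of 700 bp (quartiles 575 and 850 bp), and other autosomal peaks of 675 bp (550 and 825 bp). Both kinds had a smallest width of 500 bp.

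The cluster with most peaks lay on chromosome 2 from 179911126 to 179940675 and held 12 peaks in 29550 bp. Its peaks were 500 to 1275 bp wide, and their gaps ran from 225 bp, between peaks 1 and 2, to 3650 bp before peak 8. It held 4 red H3K27me3 and 6 red H3K4me3 regions and 0 green regions of either mark. Counted from the low coordinate, red H3K27me3 met peaks 4, 6, 7 and 10. Red H3K4me3 met peaks 3, 6, 7, 9 and 10, so that peaks 6, 7 and 10 met both. At peak 7, 675 bp wide, red H3K27me3 covered 575 bp and red H3K4me3 625 bp. The largest red H3K27me3 region of the cluster, from 179924976 to 179926400, lay over this peak.

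**Figure D1:**
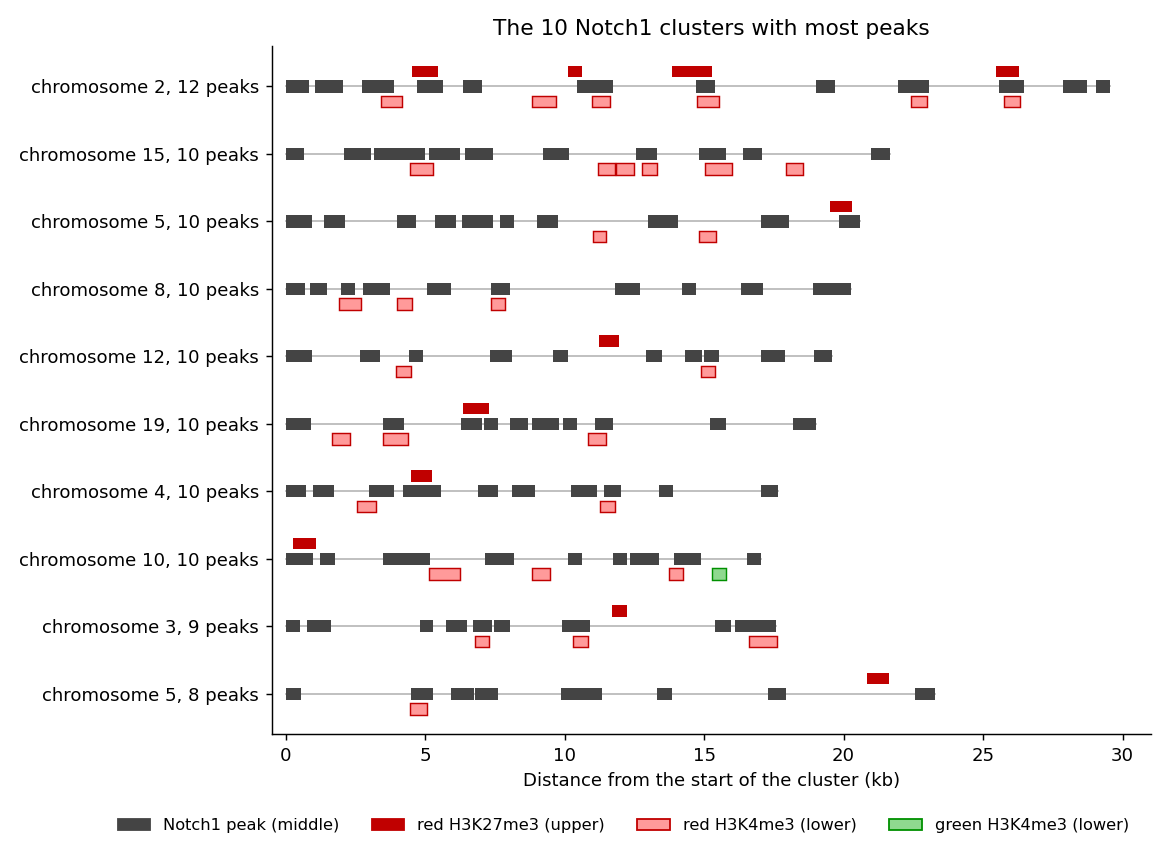
The 10 clusters with most peaks, drawn to scale from the start of each (x axis, kb), with Notch1 peaks as dark boxes, H3K27me3 regions above and H3K4me3 regions below, in the colours of the lists; adjoining peaks appear as 1 box where their gap is 0 or very short. Red H3K4me3 is present in all 10 clusters and red H3K27me3 in 8, and the single green region lies between peaks.

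The next 7 clusters each held 10 peaks. The one on chromosome 15 from 76001126 to 76022800 had peaks of 650 to 1825 bp. It held 6 red H3K4me3 regions, which covered 4175 bp (19.3% of its span), and 0 H3K27me3 regions. The one on chromosome 8 from 124074976 to 124095225 likewise held red H3K4me3 (3 regions) and 0 H3K27me3 regions. The remaining 5 lay at chr5:140227201-140247775, chr12:111889426-111909025, chr19:6246126-6265125, chr4:141017376-141035025 and chr10:74383426-74400475. Each of these 5 held 1 red H3K27me3 region and 2 or 3 red H3K4me3 regions. In the chromosome 12 cluster the H3K27me3 region, 700 bp wide, met 0 peaks, and in the chromosome 19 cluster it met 2. The chromosome 10 cluster also held 1 green H3K4me3 region of 500 bp, which lay between peaks.

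The 9-peak cluster on chromosome 3 from 108199426 to 108217000 held 3 red H3K4me3 regions, each on a peak, and 1 red H3K27me3 region on none. The last of the 10, on chromosome 5 from 116056226 to 116079500, held 8 peaks, 1 red H3K4me3 region on a peak and 1 red H3K27me3 region on none. Over these 10 clusters 30 of 99 peaks met a listed region, from 1 of 10 in the chromosome 5 cluster at 140227201 to 6 of 12 in the first. Peaks that meet no listed H3K27me3 or H3K4me3 region are the majority in general, 67.1% of all autosomal peaks.

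The widest clustered peak was 2125 bp, on chromosome 17 from 27252501 to 27254625, the third of 7 in its cluster. It shared 675 bp with red H3K4me3. The second, 2100 bp, lay on chromosome 10 from 79201851 to 79203950 and met no listed region, as did its whole cluster of 4. The next were peaks of 1825 bp on chromosome 15 from 76004301 to 76006125 and of 1800 bp on chromosome 7 from 112901901 to 112903700, which shared 525 and 1475 bp with red H3K4me3. The last, 1775 bp on chromosome 5 from 38214401 to 38216175, was covered over 1725 bp by red H3K27me3. Of these 5 peaks, none met both marks.

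Clusters were unevenly spread along the genome. Chromosomes 5, 11 and 10 held 30, 29 and 28 clusters, together 37.7% of the clusters against 22.5% of the autosomal peaks. Chromosomes 1, 16 and 18 held 1 each, although they had 697, 376 and 380 peaks. The share of a chromosome's peaks that lay in clusters ran from 0.72% on chromosome 1 to 18.6% on chromosome 10. Chromosome 2 had 1224 peaks, close to the 1238 of chromosome 11, but 10 clusters against 29.

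**Figure D2:**
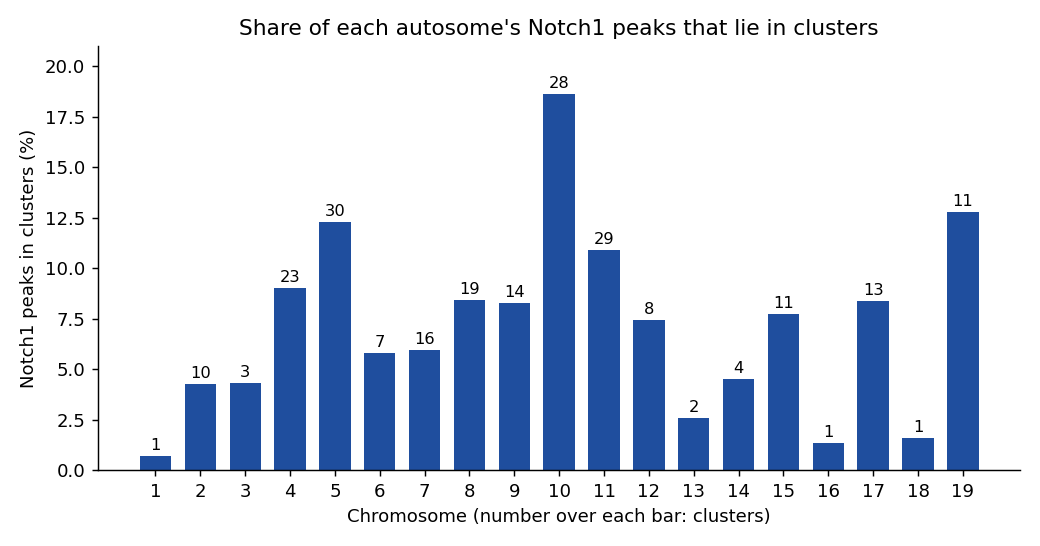
Share of the Notch1 peaks of each autosome that lie in clusters of 4 or more (bars, percent), with the number of clusters over each bar. Chromosome 10 has the highest share, 18.6%, and chromosome 1 the lowest, 0.72%.

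Many clusters lay within 1 Mb of another cluster. This was not counted for single peaks, pairs or triplets, so whether it is particular to clusters is unknown. Notch1 peaks themselves ranged from 2.75 per Mb on chromosome 3 to 10.2 per Mb on chromosome 11. When clusters less than or equal to 1 Mb apart were joined, they formed 113 neighbourhoods, 73 of a single cluster and 40 of 2 or more, which held 158 of the 231 clusters. The 13 neighbourhoods of 4 or more clusters held 95. The one with most clusters lay on chromosome 10 from 79003301 to 80998325, where 22 clusters with 109 peaks stood among 224 peaks in all. Its density was 112.3 peaks per Mb, against 5.78 per Mb on chromosome 10 as a whole. The rule favours such a difference, since neighbourhoods begin and end at clusters of closely spaced peaks. Some neighbourhoods of fewer clusters were denser over shorter spans. An example is chr5:115995701-116079500 with 3 clusters and 262.5 peaks per Mb in 0.0838 Mb. The next by number of clusters were chr11:117913101-120682425 with 9 clusters, chr19:3998051-6495100 with 8 and chr5:112795926-114861650 with 7. Neighbourhoods of 7 clusters also lay at chr8:122288826-125026375 and chr11:113687551-116161500.

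The red marks at the clustered peaks of these neighbourhoods can be set beside the shares of all autosomal peaks, 22.6% for red H3K27me3 and 13.3% for red H3K4me3. In the chromosome 10 neighbourhood, 19 of the 109 clustered peaks (17.4%) met red H3K27me3 and 12 red H3K4me3. In the 9-cluster neighbourhood on chromosome 11 the counts were 2 of 44 (4.55%) and 13 of 44 (29.5%). On chromosome 19, 14 of 44 (31.8%) met red H3K27me3 and 8 (18.2%) red H3K4me3. On chromosome 5 it was 2 of 40 (5.00%) for each mark. Of the other 7-cluster neighbourhoods, the one on chromosome 8 had 4 (11.1%) and 3 (8.33%) of 36, and the one on chromosome 11 had 9 (27.3%) and 5 (15.2%) of 33. These differences between neighbourhoods were not tested. The spans of the first 4 neighbourhoods held 66 to 154 red H3K27me3 and 42 to 113 red H3K4me3 regions each. Green regions in the same spans numbered 16 to 49 for H3K27me3 and 7 to 75 for H3K4me3. On chromosome 19 green H3K4me3 regions outnumbered red ones, 75 against 67. These counts are not scaled to the length of the spans.

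Red H3K27me3 met clustered peaks somewhat less often than Notch1 peaks in general. It shared at least 1 bp with 210 of 1138 clustered peaks (18.5%, 16.2 to 20.8), where the share of all autosomal peaks was 22.6% and that of peaks outside the clusters 23.0%. The share changed with the size of the chain. It was 21.5% (20.7 to 22.4) for peaks alone, 26.1% (24.5 to 27.8) in pairs and 27.5% (24.9 to 30.2) in triplets. In clusters it was 22.2% (18.8 to 26.0) with 4 peaks, 16.3% (11.6 to 21.9) with 5, 16.7% (11.1 to 23.6) with 6 and 13.1% (9.06 to 18.05) with 7 or more. Peaks of triplets and of the largest clusters thus lay at opposite ends, and with the limit set at 3 peaks the share was 22.9%, no longer below that of the rest (22.5%).

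Red H3K4me3 met clustered peaks more often than Notch1 peaks in general. It was present at 213 of 1138 clustered peaks (18.7%, 16.5 to 21.1), beside 13.3% of all autosomal peaks and 12.8% of those outside the clusters. Peaks alone, in pairs and in triplets had shares of 12.9%, 12.8% and 12.4%. Clusters of 4, 5, 6 and 7 or more peaks had shares of 18.3% (15.1 to 21.8), 18.6% (13.6 to 24.5), 18.7% (12.8 to 25.8) and 19.8% (15.0 to 25.5). Among clustered peaks the red marks were about equally frequent, whereas outside the clusters red H3K27me3 was the more frequent one.

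**Figure D3:**
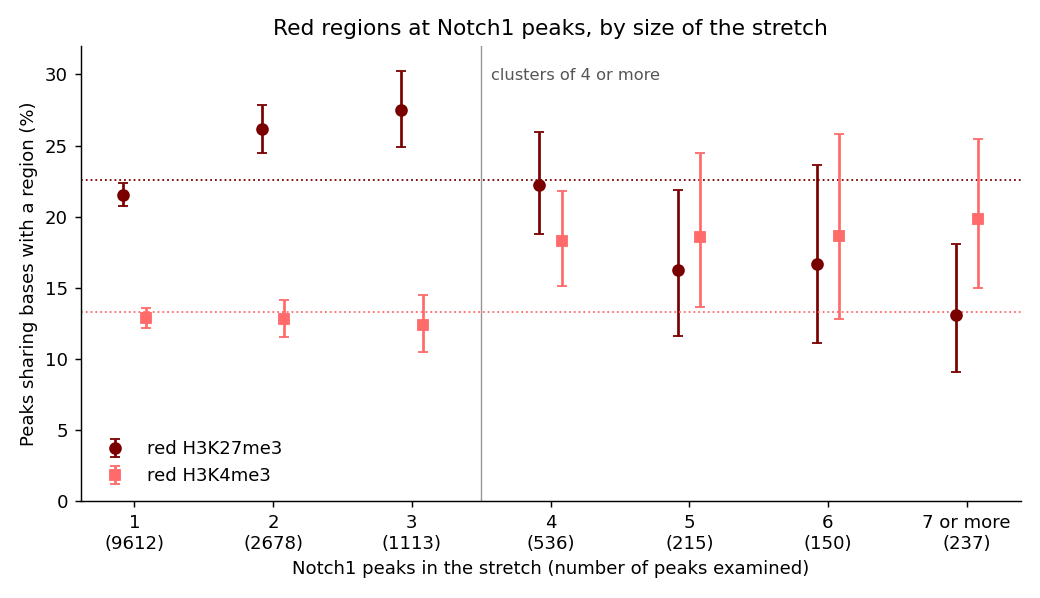
Percent of Notch1 peaks sharing at least 1 bp with a red H3K27me3 (circles) or red H3K4me3 region (squares), by number of peaks in the chain, with 95% Clopper-Pearson intervals and the shares of all autosomal peaks as dotted lines (22.6% and 13.3%). Red H3K4me3 is between 18.3% and 19.8% in every class of 4 or more peaks, and red H3K27me3 falls from 27.5% in triplets to 13.1% in the largest clusters.

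Clustered peaks met both red marks about as often as Notch1 peaks in general. Both were present at 44 clustered peaks (3.87%, 2.82 to 5.16), beside 3.82% of all autosomal peaks. Red H3K27me3 without red H3K4me3 was found at 166 clustered peaks (14.6%, beside 18.8% of all), and red H3K4me3 without red H3K27me3 at 169 (14.9%, beside 9.46%). Neither colour of these marks was found at 757 (66.5%, beside 67.1% of all). Clustered peaks with both red marks had a median width of 837.5 bp, those with red H3K27me3 alone 650 bp, those with red H3K4me3 alone 750 bp and those with neither red mark 700 bp. For other autosomal peaks these medians were 775, 700, 725 and 650 bp. Peaks with both red marks were thus the widest class in both groups. The overlap rule favours this, since a wider peak shares 1 bp with a region more readily.

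Within a cluster, red H3K4me3 met 138 of 676 inner peaks (20.4%, 17.4 to 23.7) and 75 of 462 end peaks (16.2%, 13.0 to 19.9), and these intervals overlap. Red H3K27me3 met 122 of 676 inner peaks (18.05%) and 88 of 462 end peaks (19.0%). Where red H3K27me3 met a peak it covered a median of 91.2% of it, and 91 of the 210 peaks were covered whole. Red H3K4me3 covered a median of 65.6%, and 18 of 213 peaks were covered whole.

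Counted once each, clusters held red H3K4me3 more often than smaller chains did and red H3K27me3 about as often as triplets, and their greater length moves with these counts. Red H3K4me3 lay inside 148 of 231 clusters (64.1%, 57.5 to 70.3), beside 16.0% of all autosomal chains, single peaks included. Red H3K27me3 lay inside 97 clusters (42.0%, 35.5 to 48.6), beside 24.2% of all chains. Both were inside 69 clusters (29.9%, beside 5.24% of all chains) and neither inside 55 (23.8%, beside 65.0%). In triplets, whose mean span was 6.33 kb against 10.6 kb for clusters, red H3K27me3 was present in 42.9% and red H3K4me3 in 36.7%. Pairs, with a mean span of 3.44 kb, held them in 34.7% and 24.7%. Cluster counts varied between chromosomes. On chromosome 17, 1 of 13 clusters held red H3K27me3 and 10 held red H3K4me3, and on chromosome 19 it was 9 and 8 of 11. The shares of all chains on these chromosomes were not counted, so whether the contrast is particular to clusters is unknown.

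**Figure D4:**
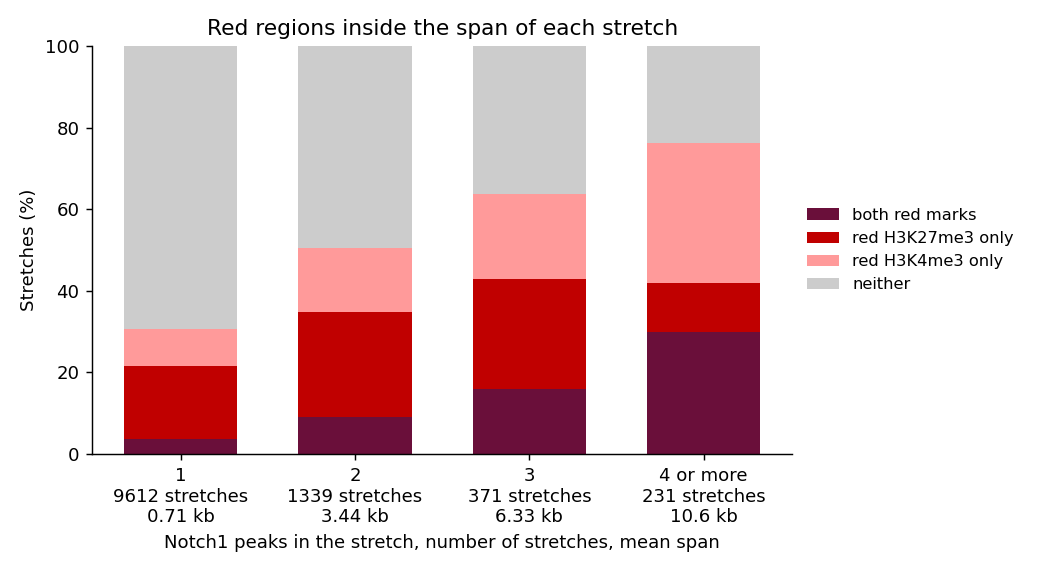
Percent of chains (stacked bars) whose span holds both red marks, red H3K27me3 only, red H3K4me3 only or neither, by number of Notch1 peaks, with the number of chains and their mean span under each bar. Clusters of 4 or more peaks hold both marks in 29.9% and neither in 23.8%, and their mean span of 10.6 kb exceeds that of the other classes.

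Cover per base takes the length into account. Red H3K4me3 covered 12.4% of the bases under clustered peaks and 4.26% of the bases between them. In triplets it covered 9.03% and 2.95%, in pairs 9.24% and 1.94%. Red H3K27me3 covered 14.5% of bases under clustered peaks and 7.27% of those between them, beside 22.7% and 9.20% in triplets and 22.5% and 8.37% in pairs. Per base, clusters thus held more red H3K4me3 and less red H3K27me3 than pairs and triplets, both under and between their peaks.

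Of 243 red H3K27me3 regions inside clusters, 181 (74.5%) met a peak, and 30 of these spanned 2 or more peaks. Regions on a peak were wider (median 925 bp) than the 62 between peaks (675 bp). Sharing 1 bp is enough to count as on a peak, so the overlap rule favours wider regions there. Of 264 red H3K4me3 regions, 200 (75.8%) met a peak and 17 met 2 peaks. Their median widths were 650 bp on peaks and 625 bp between them. Red H3K27me3 met peaks of 91 clusters, in 56 of them 2 or more peaks, and red H3K4me3 met peaks of 127, in 62 of them 2 or more. In 50 clusters peaks met both red marks, and in 36 of these at least 1 peak met both, while in 14 the marks lay only on different peaks. These counts of regions and clusters were not made for pairs and triplets, so whether they are particular to clusters is unknown.

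Green regions were rare at clustered peaks, as they were at Notch1 peaks in general. The lists held 9670 green and 13012 red H3K27me3 regions, and 10242 green and 11160 red H3K4me3 regions. Green H3K4me3 met 0 of 1138, beside 0.674% of all autosomal peaks. For this 0 a limit of 3 counts is 0.264%, and the upper end of the Clopper-Pearson interval is 0.324%. The 98 autosomal peaks that met it comprised 89 peaks standing alone (0.93% of these), 7 in pairs (0.26%) and 2 in triplets (0.18%). Green H3K27me3 met 4 clustered peaks (0.35%, 0.10 to 0.90), beside 0.701% of all. H3K9ac of either colour met 0 of 623 clustered peaks on the 11 chromosomes its list covers, beside 0.421% of all peaks there (0.221% red and 0.199% green). Here the limit of 3 counts is 0.482%, and the upper end of the Clopper-Pearson interval is 0.590%. For H3K9ac this interval includes the share of all peaks, so the 0 does not set clustered peaks apart. The limits for both zeros count peaks as independent, although peaks of a cluster share a locus, and no difference was tested.

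Inside cluster spans green regions lay mostly between the peaks, which was not particular to clusters. Green H3K27me3 covered 0.13% of bases under clustered peaks and 1.31% of those between them. In pairs these shares were 0.16% and 2.19%, and in triplets 0.30% and 1.56%. Green H3K4me3 likewise had lower cover under peaks than between them in pairs, triplets and clusters. There were 28 green H3K27me3 regions, 23 of them on no peak, in 18 clusters (7.79%, beside 1.76% of all chains, 6.12% of pairs and 8.89% of triplets), and each of these 18 also held red H3K27me3. Green H3K4me3 had 4 regions, all between peaks, in 3 clusters (1.30%, beside 0.935% of all chains). The single H3K9ac region, red and 625 bp wide, lay between peaks of 1 of the 128 clusters on the covered chromosomes. No cluster held all 3 marks, but only the 128 on the covered chromosomes could have, and only 1 of them held any H3K9ac. Of the 231 clusters, 54 held no listed region of any mark, with H3K9ac listed on 11 chromosomes only. The matching share of all chains was not counted.

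The cluster with most red H3K27me3 lay in the chromosome 10 neighbourhood of 22 clusters, from 79768726 to 79785075. Red H3K27me3 covered 8000 bp of it (48.9% of its span) in 7 regions and met 7 of its 8 peaks, and 3 of the 8 met red H3K4me3. The second lay on chromosome 19 from 44816301 to 44835725, where 8 red regions covered 6950 bp and met all 6 peaks. The same cluster held the most green H3K27me3, 3700 bp in 5 regions, so that regions of both colours lay within 19425 bp. The third, on chromosome 11 from 21893126 to 21902475, had 5 red H3K27me3 regions over 6100 bp, 65.2% of its span, and they met all 4 of its peaks.

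After the chromosome 19 cluster, green H3K27me3 was most extensive at chr6:52114251-52127675, with 3 green regions over 2500 bp, and at chr4:140857176-140869200, with 2 green regions over 2475 bp. Their red H3K27me3 regions numbered 6 and 2. The first of these clusters had no peak on a green region and the second had 1 of its 4.

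Red H3K4me3 was most extensive in the clusters of 12 and 10 peaks on chromosomes 2 and 15, at 4225 and 4175 bp. The third place belonged to a compact cluster of 4 peaks on chromosome 12 from 113410476 to 113418425, where 4 red H3K4me3 regions covered 3625 bp, 45.6% of its span, and met 3 peaks. It also held 2 red H3K27me3 regions. Green H3K4me3 was most extensive on chromosome 17 from 25963151 to 25983800, a 6-peak cluster with 2 green regions over 1400 bp, 3 red H3K4me3 regions over 2425 bp and the red H3K9ac region. None of those regions met a peak. A 6-peak cluster on chromosome 3 from 107878201 to 107889575 held 1 green H3K4me3 region of 550 bp and no other listed region.

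Around the peak centres, red H3K27me3 was less peaked for clustered peaks and stayed higher further out. It covered 15.4% of bases within 250 bp of the centre of a clustered peak and 19.9% for other autosomal peaks. From 2 to 5 kb the order was reversed, at 7.15% and 3.18%, and from 10 to 20 kb it was 4.24% and 2.26%. Red H3K4me3 was higher for clustered peaks at the centre (12.8% and 9.88%), from 2 to 5 kb (5.57% and 1.25%) and from 10 to 20 kb (2.80% and 1.16%). By the rule a clustered peak has a neighbour across a gap of 5 kb or less, so cover at such distances includes regions on neighbouring peaks. At 10 to 20 kb this can hold only in clusters longer than 10 kb, and the median cluster spanned 9625 bp.

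**Figure D5:**
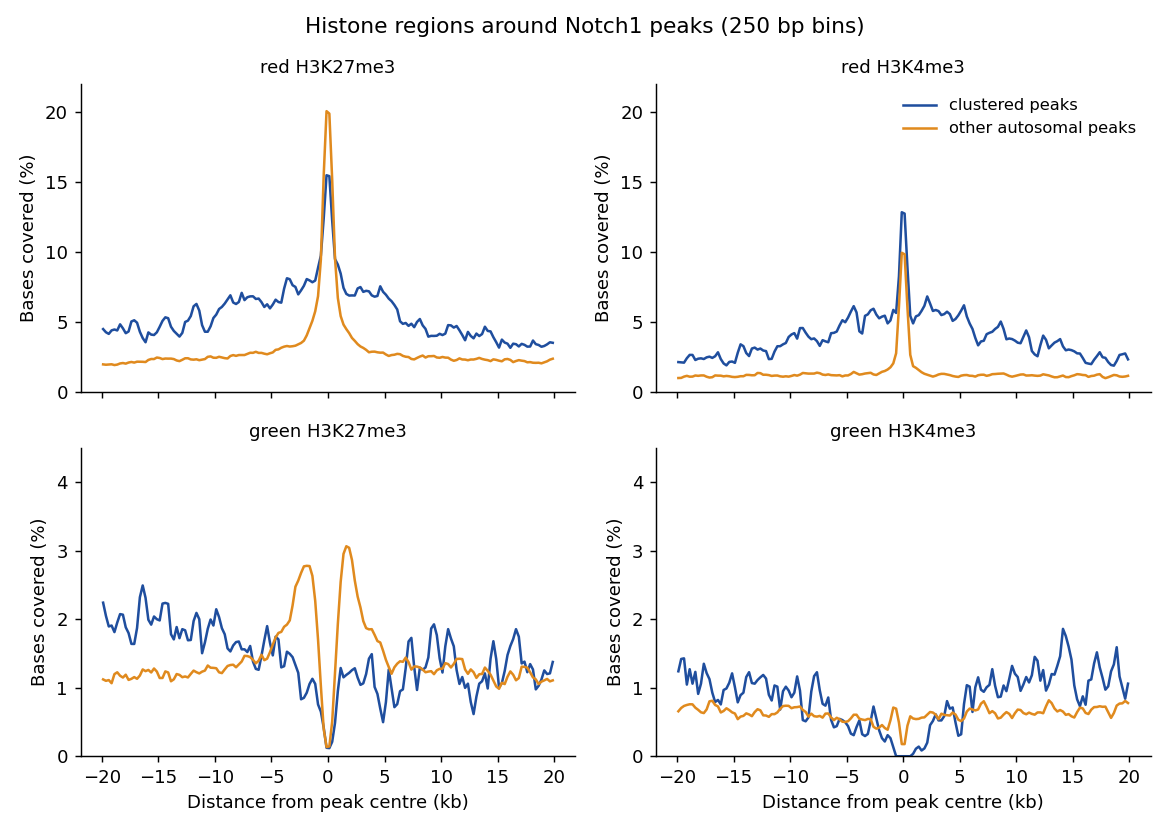
Percent of bases covered by red and green H3K27me3 and H3K4me3 regions in 250 bp bins (y axis; the scale of the green panels is expanded) against distance from the centre of clustered and other autosomal Notch1 peaks. Red H3K27me3 reaches a lower maximum at clustered peaks, and the shoulders of green H3K27me3 beside other peaks are not seen beside clustered ones.

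The green marks were low at both kinds of peak. Green H3K27me3 covered 0.12% of bases within 250 bp of clustered and 0.14% of other peak centres. From 1 to 2 kb it covered 1.13% beside clustered peaks and 2.76% beside the others, and from 10 to 20 kb 1.61% and 1.20%. Green H3K4me3 beside clustered peaks was 0 within 250 bp, 0.19% from 1 to 2 kb and 1.12% from 10 to 20 kb. For other peaks these were 0.18%, 0.50% and 0.67%.

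Outside the ends of the clusters red marks were also more frequent than beside single peaks. Within 5 kb of either end, where by the rule no other Notch1 peak begins, 90 clusters (39.0%) had red H3K4me3 and 77 (33.3%) red H3K27me3, beside 19.7% and 25.9% of single peaks and 35.0% and 42.0% of triplets. Pairs had red H3K27me3 there in 36.6%. Green H3K4me3 lay in these flanks of 30 clusters (13.0%), beside 6.34% of single peaks, 7.47% of pairs and 8.89% of triplets. Cover of these flanks was 2.63% by red H3K4me3 and 4.08% by red H3K27me3, beside 1.07% and 2.95% for single peaks and 2.21% and 5.27% for triplets. From 5 to 20 kb away, 64.5% of clusters and 31.7% of single peaks had red H3K4me3, and 29.9% and 16.3% had green H3K4me3. Pairs and triplets lay between these values, with red H3K4me3 in 46.8% and 56.9% and green H3K4me3 in 21.2% and 25.6%. From 5 to 20 kb the higher frequency was thus not particular to the clusters. These further flanks can hold other Notch1 peaks.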

How the data were processed

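BWA, NCBIM37 and mm9 are the aligner and builds listed in the submitters' processing notes. Fixation used 1% formaldehyde (10 min), and 36 bp single-end reads (34 bp after processing) were made, per the labels' protocols. Not given in the sources used here are the caller, its thresholds and the use of inputs and replicates. The 4 BED lists deposited by the authors have the same score in every row and positions in steps of 25 bp, and per the file headers the histone lists compare Notch1-IC tumours with DP cells. Depth per library is unknown.

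Overlaps of 1 bp or more, chains and shares were computed in Python 3.11.15 with pandas 2.3.3, and intervals with scipy 1.17.1. Chaining and overlap were tested on simulated intervals. A count of 0 was given the upper limit of 3 counts. Named were the 10 clusters with most peaks, the 5 widest clustered peaks and the 3 clusters with most bases of each mark and colour. Neighbourhoods were described after seeing the data. The members and lists were chosen with earlier results of these data known. Motif and gene counts were not made, since the reference tables used here are on another build.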

Additional observations from a re-analysis of the deposited data

How the results depend on the processing

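The tally of clusters follows from the rule: 105 with a gap of 2.5 kb, 458 with 10 kb, 97 with 5 or more peaks, 602 with 3 or more, and 48 from peaks at or above the median width, before chaining. The sex chromosomes added none. The share of clustered peaks meeting red H3K27me3 became 13.0% with a gap of 2.5 kb, 15.1% with 5 or more peaks, 22.9% with 3 or more, 12.1% with wide peaks, 15.5% with 50% of the peak covered, 14.4% with histone regions at or above their median width, and 21.1% without chromosomes 5, 10 and 11, an alternative chosen after seeing the data. It was below that of other peaks in 10 of 11 alternatives and above it with 3 or more peaks. The difference was -4.50 percentage points as reported and ran from -14.1 with wide peaks to 0.376 with 3 or more. It shrank to -2.17 without those chromosomes and to -2.25 with a gap of 10 kb. For red H3K4me3 the share became 21.8% with a gap of 2.5 kb, 15.6% with 10 kb, 15.6% with 3 or more peaks, 22.5% with wide peaks, 13.6% with 50% covered, 10.1% with wide regions and 21.2% without those chromosomes, above that of other peaks in 11 of 11. Green H3K27me3 became 0 with a gap of 2.5 kb and with wide peaks, and 0.088% with 50% covered. Its share was below that of other peaks in 10 of 11 alternatives. With 3 or more peaks the order was reversed, at 0.711% beside 0.700%. Clusters holding red H3K27me3 were 28.6% with a gap of 2.5 kb, 55.5% with 10 kb, 35.4% with wide peaks and 33.8% with wide regions. Those holding red H3K4me3 were 75.3% with 5 or more peaks, 47.2% with 3 or more, 75.3% with regions within 5 kb of the span and 40.3% with wide regions. Of the 79 values, 49 stayed within the interval of the value reported, or for the number of clusters within 1.5 times it. No paired analysis was possible because the deposited lists give 1 set of positions per mark and nothing for single libraries. Replicates could therefore not be left out in turn. The motif search with its alternative was not run. How many reads support a peak is unknown, so weak and strong peaks count alike.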
